A study of Homo sapiens with 6 samples.

Results

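The epidermal differentiation complex is a cluster of genes on chromosome band 1q21 that build the outer layer of the skin. It was taken here as every protein-coding gene whose span lies within chromosome 1, 151.9 to 153.7 Mb, on GRCh38. The RefSeq table held 67 such genes out of 20033 protein-coding genes on the chromosomes. Accessible chromatin was read from lists of ATAC-seq peaks, intervals in which a transposase inserted sequencing adapters more often than in the background. The cells were NCI-H1703, an established lung squamous cell carcinoma line. In 3 libraries the cells had DLGAP1-AS2, a long non-coding RNA, silenced (titled ASO_1 to ASO_3), and 3 libraries came from control cells of the same line (titled NC_1 to NC_3). No dose, time, ASO sequence or number of separate cultures is given for either group, so p-values measure the spread between these libraries, which may be technical. The lists held 121406 to 167966 peaks in silenced and 91346 to 170882 in control libraries. They hold no RNA, so they show neither the degree of silencing nor whether a gene was transcribed.

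In keratinocytes, the cells of the epidermis, the cluster is largely shut in dividing basal cells and opens as cells mature towards the surface. Its products fall into families that lie side by side. Involucrin (IVL), loricrin (LORICRIN), the small proline-rich proteins (SPRR) and the late cornified envelope proteins (LCE) are cross-linked into the cornified envelope, the protein shell of dead surface cells. Filaggrin (FLG) and its relatives, among them trichohyalin (TCHH), repetin (RPTN), hornerin (HRNR) and cornulin (CRNN), join a calcium-binding S100 domain to long repeats and are called fused S100 proteins. The S100 genes at both ends of the cluster encode small calcium-binding proteins, several of which are made in many tissues. Well-differentiated squamous carcinomas can make cornified envelope proteins too.

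The labelled tumour type was set against marker genes by peaks at gene starts. A gene-start peak is a peak whose midpoint lies within 1 kb of a start listed by RefSeq, or of either end of the span for a gene with no listed start. Of 8 squamous markers, only SOX2 had such a peak in all 6 libraries, with heights (fragment pileup) of 22, 18 and 10 in silenced replicates 1, 2 and 3 and 20 in each control library. KRT5 and KRT6A had none in any library, and TP63 had one in control replicate 3 alone, with a height of 2. Of 5 mesenchymal markers, 4 had a peak in all 6 libraries (PDGFRA, VIM, ZEB1 and CDH2). Of 5 lung adenocarcinoma and alveolar markers, NKX2-1, NAPSA and SFTPC had one in all 6, SFTPB in 2 and FOXA2 in 1. Of all protein-coding genes, 58.9% had one in all 6, beside 60% of these 5, 80% of the mesenchymal and 12.5% of the squamous markers. Calls at so few genes do not name a cell type, and the share of the adenocarcinoma and alveolar markers was near that of all genes. Among leukocyte markers, PTPRC had none and CD68 had one in all 6, and among 3 melanocyte markers only PMEL had one. By gene-start peaks, most squamous markers were thus not stably accessible in these libraries, though a peak at a start missing from the RefSeq table would not be counted.

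The promoters of genes at the 2 extremes of the cluster are shown first, as examples chosen by their own peak calls. ILF2, CHTOP and S100A13 had the tallest gene-start peaks, by median height, among the members with a listed start and a peak in all 6 libraries. TCHH and IVL were the members among FLG, IVL, LORICRIN, TCHH and HRNR with no gene-start peak in any library. Each sequence is the RefSeq promoter on GRCh38.p14, from 250 bases before to 50 bases after the gene start, read 5′ to 3′ on the gene's own strand. Capitals mark matches, on either strand, to the GC box GGGCGG, the AP-1 motif TGANTCA, the TEAD motif GGAATG or the TATA box TATAAA. ILF2 (chr1:153670944-153671243, minus strand) held 14 CpG dinucleotides and 1 GC box. CHTOP (chr1:153633816-153634115, plus strand) held 25 CpG and 2 GC boxes, and S100A13 (chr1:153634312-153634611, minus strand), which starts close by on the other strand, held 19 CpG and 1 GC box. TCHH (chr1:152115395-152115694, minus strand) held 3 CpG, a TATA box, and a TEAD and an AP-1 match that overlap each other. IVL (chr1:152908296-152908595, plus strand) held 0 CpG, 1 AP-1 match and 1 TATA box.
ILF2: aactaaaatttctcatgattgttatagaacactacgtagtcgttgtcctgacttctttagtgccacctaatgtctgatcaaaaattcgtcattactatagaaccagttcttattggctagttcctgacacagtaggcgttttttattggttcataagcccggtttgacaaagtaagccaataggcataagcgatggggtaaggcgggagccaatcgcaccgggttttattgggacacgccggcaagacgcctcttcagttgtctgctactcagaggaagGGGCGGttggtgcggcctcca
CHTOP: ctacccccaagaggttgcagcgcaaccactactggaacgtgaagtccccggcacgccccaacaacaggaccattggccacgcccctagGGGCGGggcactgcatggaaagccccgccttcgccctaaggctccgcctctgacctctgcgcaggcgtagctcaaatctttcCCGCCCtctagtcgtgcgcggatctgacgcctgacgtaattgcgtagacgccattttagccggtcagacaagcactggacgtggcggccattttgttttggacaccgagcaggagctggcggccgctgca
S100A13: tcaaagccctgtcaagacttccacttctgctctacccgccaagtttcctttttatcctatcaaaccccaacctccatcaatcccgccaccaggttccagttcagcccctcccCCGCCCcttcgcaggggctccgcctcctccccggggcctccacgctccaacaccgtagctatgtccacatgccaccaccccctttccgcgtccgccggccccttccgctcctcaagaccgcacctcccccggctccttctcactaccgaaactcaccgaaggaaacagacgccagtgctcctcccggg
TCHH: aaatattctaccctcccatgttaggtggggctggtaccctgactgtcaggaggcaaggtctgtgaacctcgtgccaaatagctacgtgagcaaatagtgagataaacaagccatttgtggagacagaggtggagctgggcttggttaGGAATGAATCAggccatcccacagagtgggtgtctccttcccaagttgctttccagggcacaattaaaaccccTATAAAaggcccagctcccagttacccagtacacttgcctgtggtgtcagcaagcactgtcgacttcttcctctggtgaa
IVL: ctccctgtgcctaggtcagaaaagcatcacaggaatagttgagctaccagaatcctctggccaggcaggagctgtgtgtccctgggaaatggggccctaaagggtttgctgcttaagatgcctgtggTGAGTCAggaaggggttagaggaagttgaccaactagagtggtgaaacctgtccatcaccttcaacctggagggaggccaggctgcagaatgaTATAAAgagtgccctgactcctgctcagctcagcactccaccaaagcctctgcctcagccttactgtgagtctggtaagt

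Most genes of the cluster had no stable peak at their start. Of the 67 genes, 13 (19.4%) had a gene-start peak in all 6 libraries, against 58.9% of all protein-coding genes. No library had one at 23 members (34.3%), against 19.1% of all protein-coding genes, and the remaining 31 members had one in 1 to 5 libraries. Among the 63 members with a listed start, 12 (19.0%) had a peak in all 6 libraries, against 61.6% of the 15842 genes with a listed start in the genome. The stretches of equal length on either side gave 44 of 59 genes (74.6%) on the low-coordinate side and 44 of 55 (80%) on the high-coordinate side. Counting only peaks with a false discovery rate (FDR, the authors' adjusted p-value) of at most 1e-05 left 6 of the 67 genes, S100A4, S100A2, S100A13, CHTOP, SNAPIN and ILF2, against 45.8% of all genes. These shares describe the cluster and were not tested, since neighbouring genes are not independent.

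The heights of gene-start peaks were read gene by gene along the cluster in each library. The 13 genes with a peak in every library were CRCT1, LCE1F, LCE1E, PGLYRP3, S100A6, S100A4, S100A2, S100A13, S100A1, CHTOP, SNAPIN, ILF2 and NPR1, and 9 of them lie at the high-coordinate end from S100A6 onwards. S100A13 and CHTOP share 1 peak. In 10 of the 13 genes the peaks of all 6 libraries fell into 1 region after the lists were merged. In S100A6 and NPR1 they fell into 2 regions and in PGLYRP3 into 4.

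**Figure D1:**
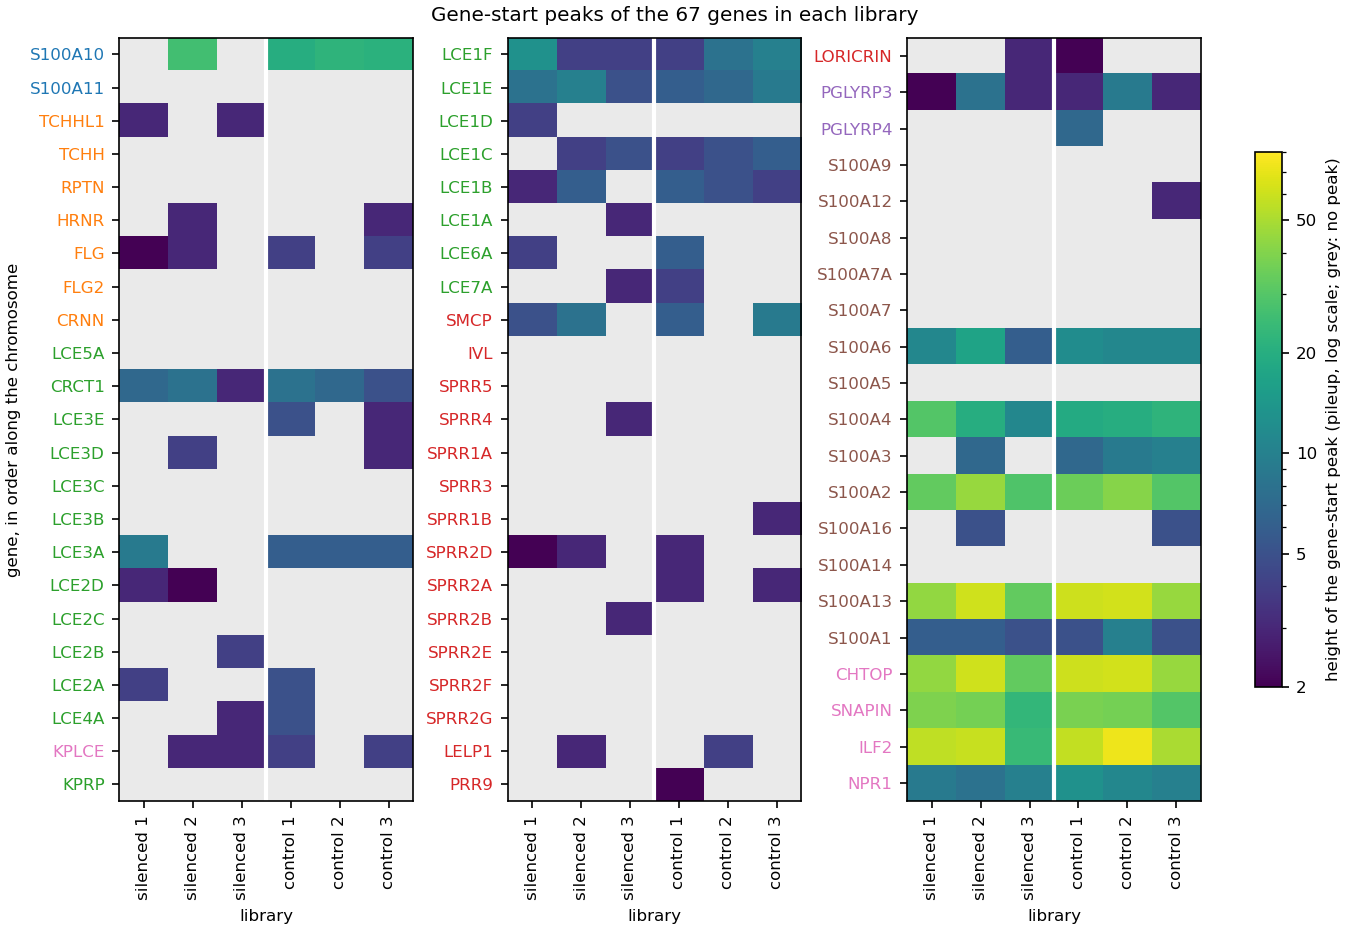
Height of the gene-start peak (fragment pileup, logarithmic colour scale) for each of the 67 genes in chromosome order (rows, read down each panel from left to right; label colours give the block) in each library (columns). Grey means that no peak was called; the rows of S100A4, S100A2, S100A13, CHTOP, SNAPIN and ILF2 are green to yellow (tall) in every library, while the IVL, SPRR and S100A7 to S100A9 rows are grey in most or all.

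At the low-coordinate end lie S100A10, whose product forms a complex with annexin A2, and S100A11. A region inside the S100A10 span (151992367 to 151993001; all coordinates are on chromosome 1, GRCh38) reached heights of 88, 79 and 51 in silenced and 89, 79 and 82 in control replicates 1, 2 and 3. Silenced replicate 3 was the lowest, and the groups overlapped. Its midpoint was 1175 bp from the listed start, outside the 1 kb limit. Within 1 kb, S100A10 had a peak in silenced replicate 2 (height 26) and in control replicates 1, 2 and 3 (20, 22 and 21). A limit of 2500 bp gave all 6 libraries a peak by taking in the taller region, so it does not test the calls within 1 kb. S100A11 had no peak within 1 kb, but a region in its span (152034351 to 152035082) had heights of 14, 20 and 7 in silenced and 16, 16 and 15 in control replicates 1, 2 and 3. The tallest region of the whole window lay beyond S100A11, 11204 bp from its start, in no member gene (152047666 to 152048751). Its heights were 142, 157 and 86 in silenced and 134, 161 and 140 in control replicates 1, 2 and 3. In both groups these heights were far above the median of 15 over the cluster's regions called in all 6 libraries.

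The 7 fused S100 genes had no member with a gene-start peak in every library. TCHH, RPTN, FLG2 and CRNN had none in any library. FLG, whose product aggregates keratin filaments, had weak peaks in 4 libraries. Silenced replicates 1 and 2 reached 2 and 3, while control replicates 1 and 3 both reached 4. HRNR had a height of 3 in silenced replicate 2 and in control replicate 3, and TCHHL1 a height of 3 in silenced replicates 1 and 3. At an FDR under 0.05 only the control peaks of FLG remained, and at most 1e-05 none did. TCHH differed from the others in holding a region called in all 6 libraries inside its span, with its nearer end 3106 bp from the start (152110336 to 152112338). The heights there were 36, 36 and 23 in silenced and 47, 32 and 47 in control replicates 1, 2 and 3, with silenced replicate 3 again the lowest.

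Among the 21 genes of the late cornified envelope block (19 LCE genes with CRCT1 and KPRP), 3 had a gene-start peak in every library, 13 in some and 5 in none. All 3 were weak. At an FDR under 0.05, CRCT1 lost its call in silenced replicate 3 and LCE1F in silenced replicate 2, while LCE1E kept its call in all 6 libraries. LCE1E had heights of 8, 10 and 5 in silenced and 6, 7 and 9 in control replicates 1, 2 and 3. At LCE1F the heights were 13, 4 and 4 in silenced and 4, 8 and 10 in control libraries. CRCT1, which has no listed start and was read at either end of its span, had 7, 8 and 3 in silenced and 8, 7 and 5 in control libraries. LCE3A had heights of 9 in silenced replicate 1 and 6 in each control library, and no peak in silenced replicates 2 and 3. LCE1C had a peak in every library but silenced replicate 1, with heights of 4 to 6. KPLCE lies among the LCE genes but was counted with the remaining genes, since its symbol falls outside the families, and it had heights of 3 or 4 in 4 libraries.

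The block with IVL, LORICRIN and the SPRR genes had few peaks at gene starts, and low ones. None of its 16 genes had a gene-start peak in every library, 7 had none in any library, and no SPRR peak in any library was taller than 3. IVL, SPRR5, SPRR1A, SPRR3, SPRR2E, SPRR2F and SPRR2G were the 7 without a peak. LORICRIN, the most abundant envelope protein of the epidermis, had a height of 3 in silenced replicate 3 and 2 in control replicate 1. SMCP, which encodes a mitochondrial capsule protein of sperm, had peaks in 4 libraries, reaching 5 (silenced replicate 1), 8 (silenced replicate 2), 6 (control replicate 1) and 9 (control replicate 3). When either end of the span was allowed, IVL had a peak in control replicates 1 and 3 (heights 5 and 4), and within 2500 bp of its start in all 3 control libraries and silenced replicate 2. The PGLYRP pair lies next to this block. PGLYRP3, a peptidoglycan recognition protein gene, had peaks in all 6 libraries with heights of 2, 8 and 3 in silenced and 3, 9 and 3 in control replicates 1, 2 and 3, but in 4 separate regions. At an FDR under 0.05 only its peaks in silenced replicates 2 and 3 and control replicate 2 remained.

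Of the 14 S100 genes at the high-coordinate end, 5 had a gene-start peak in every library, 3 in some and 6 in none. S100A9, S100A8, S100A7A, S100A7, S100A5 and S100A14 were the 6 without one. S100A8 and S100A9 form calprotectin, an antimicrobial complex of neutrophils and inflamed epithelium, and S100A7 is psoriasin. S100A2, known as an epithelial S100 protein, had heights of 33, 45 and 29 in silenced and 35, 41 and 30 in control replicates 1, 2 and 3. S100A4, linked to cell motility, had 30, 20 and 11 in silenced and 19, 20 and 22 in control libraries. At S100A6, which encodes calcyclin, the heights were 11, 17 and 6 in silenced and 12, 11 and 11 in control libraries. In these 3 genes the groups overlapped and silenced replicate 3 was the lowest library. At an FDR under 0.05 the S100A6 peak of silenced replicate 3 was lost. S100A1 had lower peaks, with 6, 6 and 5 in silenced and 5, 10 and 5 in control libraries. S100A3 had a peak in silenced replicate 2 (height 7) and in control replicates 1, 2 and 3 (7, 9 and 10). At an FDR under 0.05 only its peaks in control replicates 2 and 3 remained, and at an FDR of at most 1e-05 none did. S100A14 lacked a peak within 1 kb, but a region 1459 bp from its start (153617558 to 153618010) had heights of 41, 51 and 22 in silenced and 52, 49 and 42 in control replicates 1, 2 and 3.

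Genes with no known role in the epidermal barrier close the window. The peak shared by CHTOP, a chromatin-bound protein of messenger RNA export, and S100A13 (153633761 to 153634618) had heights of 44, 61 and 33 in silenced and 60, 62 and 45 in control replicates 1, 2 and 3. ILF2, a subunit of an RNA-binding nuclear factor, had 56, 59 and 24 in silenced and 57, 73 and 50 in control libraries. SNAPIN, a partner of the vesicle fusion machinery, had 39, 37 and 23 in silenced and 38, 37 and 30 in control libraries. NPR1, a natriuretic peptide receptor gene, had 9, 8 and 10 in silenced and 13, 11 and 10 in control libraries. The authors' fold enrichment over background was 13.3 to 18.8 at the CHTOP peak and 11.1 to 14.8 at that of ILF2, against 4.48 to 6.58 at LCE1E.

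Away from gene starts the cluster was not empty. When peaks of the 6 lists that shared 1 bp or more were merged, they gave 449 regions with a midpoint in the window, of 507440 in the genome. Of the 449, 61 (13.6%) were called in all 6 libraries, against 7.35% of all regions, and 283 (63.0%) in a single library, against 74.1%. The median height of the 61 was 15, against 16.5 over the 37284 regions called in all 6 libraries genome-wide. The adjoining stretches of equal length held 77 and 74 such regions with median heights of 41 and 26. Only 10 of the 61 (16.4%) had a midpoint within 1 kb of a member's start, against 30.2% of such regions genome-wide, and 31 of the 61 lay more than 10 kb from any member start. Of the 61, 12 touched the span of a member gene. No genome-wide share was computed for this count or for the 31 beyond 10 kb, so neither shows that regions avoid genes.

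**Figure D2:**
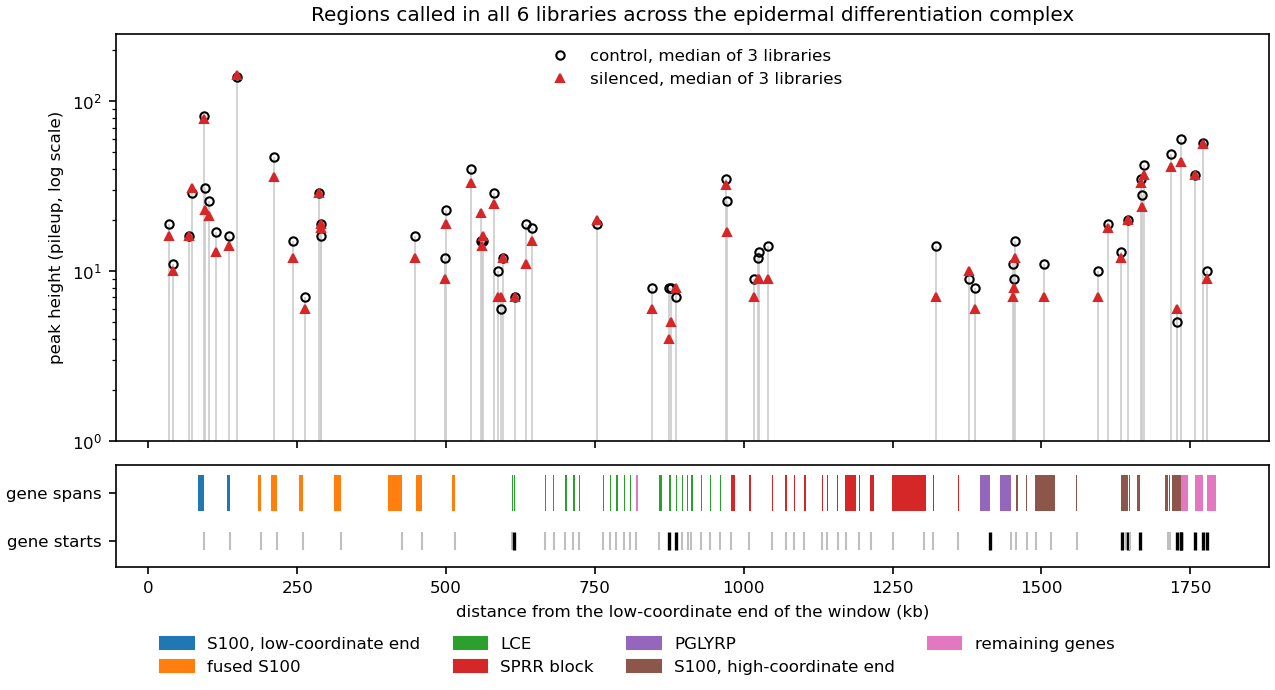
Upper panel: median height (pileup, logarithmic axis) of the 61 regions called in all 6 libraries in silenced (triangles) and control (circles) libraries against the distance in kb from the low-coordinate end of the window. Lower panel: spans of the 67 genes coloured by block and their starts, black where a gene-start peak was called in all 6 libraries; the shared regions thin out over the SPRR genes, where a stretch of 281 kb holds none, and the tallest one, at 142 in silenced and 140 in control libraries, lies near the left end.

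The regions called in all 6 libraries were unevenly spread over the blocks. Per 100 kb there were 9.24 over the 2 low-coordinate S100 genes, 2.73 over the fused S100 genes, 2.28 over the LCE block, 1.30 over the SPRR block and 3.98 over the high-coordinate S100 genes. The PGLYRP pair had 0, and the stretches between blocks 6.82. The longest interval without one ran for 281 kb from 152941766 to 153223024 and held 13 genes from SPRR5 to PRR9. Genome-wide, 5.06% of the 37260 intervals between neighbouring shared regions were longer, and the median was 29.7 kb. Inside it were 58 regions called in at most 5 libraries, none taller than 11. The next longest interval, of 157 kb, held HRNR and FLG, and the third, of 110 kb, held the 5 genes from LCE3E to LCE3A.

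From FLG to LORICRIN, 41 genes over 960 kb, there were 26 regions called in all 6 libraries, with median heights between 6 and 34.5. The nearest ones outside were at 152189670 to 152190141 on the low side (heights 24, 19 and 13 in silenced and 18, 21 and 19 in control replicates 1, 2 and 3) and at 153277808 to 153278389 on the high side (10, 13 and 4 in silenced and 8, 10 and 9 in control libraries). Between CRNN and the first LCE gene, where no member gene lies, regions stood close together. The tallest of them (152440733 to 152441239) had heights of 36, 33 and 30 in silenced and 33, 53 and 40 in control replicates 1, 2 and 3. 

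Promoter composition, which played no part in choosing the genes, followed the blocks. CpG content is given as the number of CpG dinucleotides over the number expected from the C and G content of the 300 bases. For a gene with several listed promoters, the first was used. Its median was 0.134 over the 63 members with a listed promoter and 0.763 over 15842 protein-coding genes. It was 0.0644 in the fused S100 genes, 0.139 in the LCE block, 0.0916 in the SPRR block and 0.196 in the high-coordinate S100 genes. In the remaining genes, with CHTOP, SNAPIN, ILF2 and NPR1, it was 0.833. The 12 members with a gene-start peak in all 6 libraries had a median of 0.502, with no member near it. S100A6, S100A13, CHTOP, SNAPIN, ILF2 and NPR1 had 0.712 to 0.873. LCE1E, LCE1F, PGLYRP3, S100A1, S100A2 and S100A4 had 0.0794 to 0.293. The median was 0.118 for the 29 with a peak in 1 to 5 libraries and 0.134 for the 22 without any peak. Over all protein-coding genes with a listed promoter, the medians were 0.850 for genes with a peak in all 6 libraries and 0.290 for genes with none. S100A11 stood apart, with a ratio of 0.781 and no peak within 1 kb. The relation of CpG content to the calls within the cluster was not tested, since genes of a family share their ancestry.

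**Figure D3:**
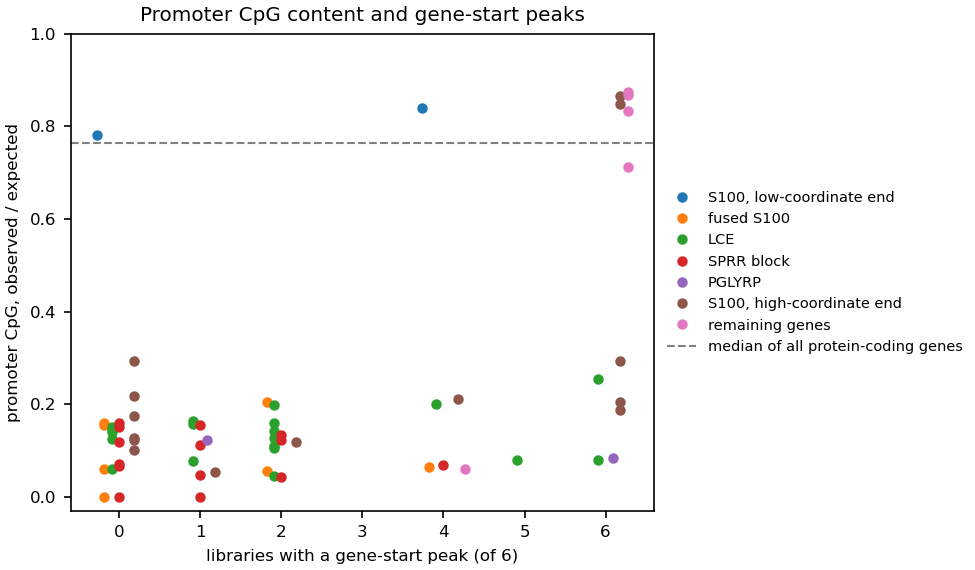
Promoter CpG content (observed over expected, vertical axis) against the number of libraries with a gene-start peak (horizontal axis; points are shifted sideways by block) for the 63 members with a listed promoter, 1 point a gene. The dashed line is the median of all protein-coding genes, 0.763; the 7 points above it are S100A10, S100A11, S100A6, S100A13, CHTOP, SNAPIN and ILF2.

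Matches to short motifs were counted on both strands of the 300-base promoters, again in the first listed promoter of each gene, whereas gene-start peaks were read at every listed start. The AP-1 motif TGANTCA was found in 19 of 63 members (30.2%), against 5.75% of all 15842 promoters, and it was split by family. It was present in 10 of 14 genes of the SPRR block, in 6 of 7 fused S100 genes and in 0 of 19 genes of the LCE block. The TATA box TATAAA was found in 30 of 63 members (47.6%), against 9.63% of all. The TEAD motif GGAATG, bound by the partners of YAP, was found in 14 of 63 (22.2%), against 11.7% of all, and the 14 included TCHH and FLG but none of the 12 members with a gene-start peak in all 6 libraries. The GC box GGGCGG was found in 13 of 63 (20.6%), against 58.5% of all, and in 7 of those 12. A TATA box stood in 15 of the 22 first promoters of members without a gene-start peak. It stood in 2 of the 12 of members with one in every library (LCE1E and S100A4). Later promoters that hold a TATA box, as in S100A13 (called in all 6 libraries) and S100A8 (called in none), are not in these counts. A match describes the letters of the promoter, not binding, and motif counts move with base composition, whose part was not tested.

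The first group comparison asked whether silencing changed how much of the window was called accessible. The window held 153, 164 and 144 peaks in silenced and 194, 134 and 177 in control replicates 1, 2 and 3. The means were 154 ± 10.0 (SD, n = 3) and 168 ± 30.9 (SD, n = 3), and the control values enclosed the silenced ones. The difference in means, -14.7 peaks, was below the SD of the control group (two-sided exact permutation p = 0.5, adjusted p = 0.6 over 3 tests, where 3 against 3 cannot go below 0.1). Without control replicate 2 the difference was -31.8 peaks (two-sided exact permutation p = 0.1), so the overlap of the groups rested on that library. The lists differ in length and in background coverage, computed from heights and fold enrichments as a stand-in for depth, which ran from 0.237 in silenced replicate 3 to 0.464 in control replicate 2. Per 1000 peaks of a list, the window held 0.944, 0.976 and 1.19 peaks in silenced and 1.14, 1.47 and 1.07 in control replicates 1, 2 and 3. The means were 1.04 ± 0.132 (SD, n = 3) and 1.22 ± 0.213 (SD, n = 3), again overlapping (two-sided exact permutation p = 0.3, adjusted p = 0.6). Control replicate 2, the shortest list, had the fewest peaks in the window and the highest share. Its list held fewer weak peaks. The median height of its peaks genome-wide was 8, against 3 or 4 in the other lists. An FDR of at most 1e-05 was met by 40.9% of them, against 20.2% to 22.0%. Peak density in the window was 74.4 to 108 per Mb, and within each library it was above that of the whole genome, 29.6 to 55.4 per Mb. The adjoining stretches of equal length held 170 to 197 and 141 to 205 peaks per library, beside 134 to 194 in the window.

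Member genes with a gene-start peak numbered 23, 26 and 23 in silenced and 31, 19 and 28 in control replicates 1, 2 and 3. The means were 24.0 ± 1.73 (SD, n = 3) and 26.0 ± 6.25 (SD, n = 3), with overlapping groups (two-sided exact permutation p = 0.6, adjusted p = 0.6). The sign turned without control replicate 1 (a difference, silenced minus control, of 0.5 genes) and at an FDR of at most 1e-05 (0.333 genes). As shares of the 67 genes the counts were 28.4% to 46.3%, against 64.6% to 69.9% of all protein-coding genes in the same libraries. No member had its start called in every library of 1 group and in none of the opposite group, a pattern shown by 0.0499% of all protein-coding genes for silenced and 0.2% for control libraries.

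**Figure D4:**
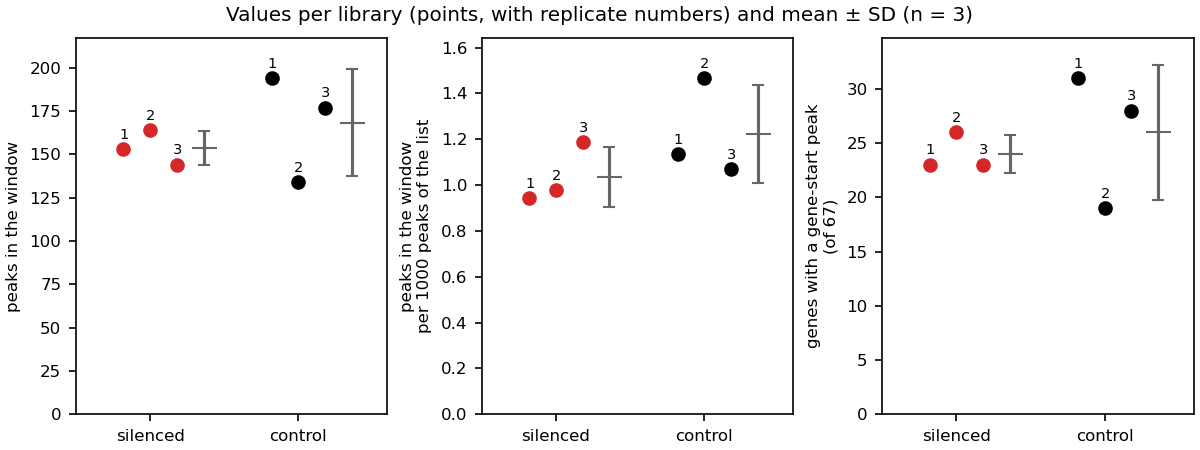
Number of peaks in the window (left), peaks in the window per 1000 peaks of the list (middle) and member genes with a gene-start peak (right) for each library, numbered by replicate, with the mean and SD of each group (n = 3). In the left and right panels the 3 control points enclose the 3 silenced points, from 134 to 194 peaks and from 19 to 31 genes.

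Among the 449 regions of the window, 0 were present in every silenced library while absent from the 3 control lists, against 0.13% of all regions. The reverse pattern was seen in 1 region, against 0.2% of all regions. It lay between LCE1E and LCE1D (152794285 to 152794649), 2254 bp from the LCE1D start, and the control libraries reached 4, 4 and 5 there. Its weakest FDR was 0.135, and it was no longer seen at an FDR under 0.05. Without control replicate 2, 8 regions met the control-only condition, and the count without any other single library was at most 4.

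Heights at the 61 shared regions were next compared between groups. Every control height was above every silenced height at 1 of the 61, against 8.79% of the shared regions genome-wide, and the reverse held at 0, against 0.161%. That region lay 2820 bp from the S100A2 start (153568382 to 153568946), with heights of 26, 24 and 20 in silenced and 28, 37 and 27 in control replicates 1, 2 and 3. Silenced replicate 3, the library of lowest background coverage, was the lowest or tied for it at 52 of the 61 regions, against 79.0% of regions genome-wide. Heights were therefore not tested directly. The fold enrichment was ranked within each list among the 37284 regions called in all 6 libraries, and the ranks were turned into normal scores, in which 0 is the middle of the list.

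By these scores the shared regions of the cluster did not shift between groups beyond the threshold. Of the 61 regions, 0 passed an adjusted p of 0.05, against 0% of all regions tested, with the smallest adjusted p at 0.963 (limma with Benjamini-Hochberg adjustment over all 37284 regions). At an unadjusted p under 0.05 there were 2 of the 61 (3.28%), near the 4.68% of all regions. The median difference (silenced minus control) over the 61 was 0.0484 score units, beside 0.00662 over all regions, with 41 above 0 and 20 below. This tally was not stable. Ranked by height or by p-value it was 33 above and 28 below, with medians of 0.0178 and 0.0221, and without control replicate 1 or 3 it was 32 and 29. Leaving out each library in turn gave medians of 0.0235 (without control replicate 3) to 0.107 (without silenced replicate 2). The difference ranged from -0.527 to 0.906.

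The region with the smallest p lay between CRNN and the LCE genes (152458367 to 152458752), with heights of 22, 23 and 14 in silenced and 10, 17 and 15 in control replicates 1, 2 and 3. Its rank scores were 0.102, 0.153 and 0.392 in silenced and -1.06, -0.505 and -0.510 in control libraries, a difference of 0.906 with a standard error of 0.318 (limma, unadjusted p = 0.0105, adjusted p = 0.963). The scores did not overlap, but the region did not pass the test. The second region (151972667 to 151973287), 20882 bp from the S100A10 start, had heights of 31, 37 and 24 in silenced and 22, 29 and 41 in control libraries. Its score difference was 0.589 with a standard error of 0.262 (limma, unadjusted p = 0.0373, adjusted p = 0.963). The third in this direction (152491602 to 152491915) differed by 0.625 (limma, adjusted p = 0.963). In the other direction, by unadjusted p, the regions on either side of the long SPRR interval had the smallest values (limma, 0.136 and 0.194). The one between IVL and SPRR5 (152941060 to 152941766) differed by -0.490 and the one between PRR9 and LORICRIN (153223024 to 153223425) by -0.429, with limma adjusted p-values of 0.963 and 0.964. The region near RPTN (152162816 to 152163427) differed more, by -0.527 (limma, unadjusted p = 0.268, adjusted p = 0.965). These 6 regions were picked by the same scores, so signs that hold under related settings are no separate support. None of the 6 differences changed sign when fold enrichment was replaced by height or p-value or when a library was left out. The same held with the replicate number as a block, but 4 of the 6 shrank by more than 1.5 times under some setting. The region at 151972667 went to 0.263 when ranked by height. The one at 152941060 went to -0.323 without control replicate 1. The one at 153223024 went to -0.227 when ranked by height and to -0.138 without silenced replicate 1. The one at 152162816 went to -0.265 when ranked by height, -0.298 without control replicate 3 and -0.189 without silenced replicate 3.

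**Figure D5:**
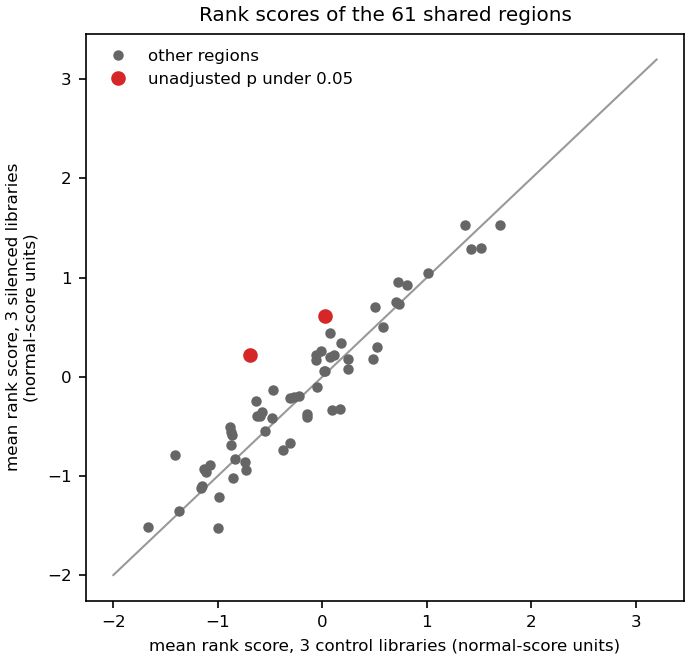
Mean rank score of each of the 61 shared regions in the 3 silenced libraries (vertical axis) against the 3 control libraries (horizontal axis), in normal-score units, with the line of equality. The 2 red points have an unadjusted p under 0.05, both above the line, and the differences of the 61 regions run from -0.527 to 0.906.

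Genes outside 1q21 that act on or with the cluster were read in the same way. Of 20 regulators of epidermal differentiation, 13 (65%) had a gene-start peak in all 6 libraries, near the 58.9% of all protein-coding genes, and 2 had none. The 13 included KLF4 and GATA3, transcription factors of epithelial maturation, and FOSL1 and JUNB, subunits of AP-1. FOSL1 had heights of 48, 57 and 25 in silenced and 58, 60 and 47 in control replicates 1, 2 and 3. KLF4 had 13, 16 and 7 in silenced and 24, 22 and 15 in control libraries. GRHL3 and OVOL1 had none, and TP63 and ZNF750, master regulators of the keratinocyte fate and of terminal differentiation, had one only in control replicate 3. Of 18 genes for envelope and barrier partners, such as transglutaminases and the keratins of mature epidermis, 0 had a gene-start peak in all 6 libraries and 7 had none, where 58.9% and 19.1% of all protein-coding genes did so. The other 11 had one in 1 to 5 libraries. ALOXE3 (heights of 25 to 36) and PPL (5 to 11) lacked one only in silenced replicate 3, the library of lowest background coverage. One of the 18, TGM1, the transglutaminase that cross-links involucrin and loricrin, had a peak in the 3 control libraries (heights 8, 6 and 6) and in no silenced library, as did 0.2% of all protein-coding genes. No gene of the regulator list showed such a pattern.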

How the data were processed

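The members, gene lists and blocks were chosen with earlier results of these data known. The submitters' processing notes name Trimmomatic 0.36, Bowtie2 2.2.6, Picard 2.8.2, MACS2 2.1.1, bedtools 2.25.0 and GRCh38, without roles or options. Read shifting and duplicate removal are not given in the sources used here. Per the file headers, the deposited lists, 1 per library, give each peak's fold enrichment as a ratio, its p-value and FDR, and the pileup signal, the height of the text. These are the authors' values per peak, and the scaling of the pileup is not stated. The lists hold peaks with p-values of the authors' peak calling up to 0.00987. They thus include peaks of high FDR, such as 0.529 for 1 peak at PGLYRP3. Depth in reads is unknown. Background coverage was computed as the smallest (height + 1) / fold enrichment − 1 of a list.

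Peaks were assigned to the window and to genes by midpoint. Gene spans and promoters came from RefSeq (GRCh38.p14), in which 63 of the 67 members had a listed start, and CRCT1, LCE1B, SPRR2D and SPRR2E were read at both ends of their spans. Exon positions were not analysed here. Library values were compared with two-sided exact permutation tests, and ranks of all 37284 shared regions genome-wide with limma 3.58.1 (R 4.3.3, mean-dependent prior, Benjamini-Hochberg threshold 0.05). The rank comparison was also run on simulated scores with the same spread for every region, which does not give its power at the regions of the cluster. Named genes were those with a start peak in all 6 libraries or in 1 group only, 5 family genes chosen by name, and regions tallest, most shifted or called in 1 group only. Others (S100A3, S100A11, S100A14, LCE1C, LCE3A and SMCP among them) were named after their values were seen. Same-numbered libraries did not deviate together (correlations of −0.00829 to 0.00238 over 3 pairs). Alternatives were stricter FDR limits, a height of at least 4, equal list sizes, other distances, other ranked values, a replicate block and leaving out each library. The result of 1 marker gene is not reported here.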

Additional observations from a re-analysis of the deposited data

How the results depend on the processing

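Depth in reads is unknown, and weak peaks near the calling limit decide many calls in the cluster. Every p-value of the 3 library comparisons was at least 0.1 under the alternatives run, a floor that 3 against 3 cannot pass, so they show no stability. Differences are silenced minus control. That in member genes with a gene-start peak, −2 genes, changed sign to 0.333 with the FDR limited to 1e-05. Leaving out each library in turn gave −5.5 to 0.5 genes, the sign turning without control replicate 1 only. It gave −31.8 to −1.83 peaks in the window and −0.266 to −0.0664 peaks per 1000. The difference in libraries with a start peak at S100A10, −2, likewise turned to 1 under that limit. Members with a start peak in all 6 libraries, 13, fell to 6 at an FDR of at most 1e-05. Their number was 9 at an FDR under 0.05, 10 with equal list sizes and 11 at a height of at least 4. It was 17 within 2500 bp, 13 within 1 kb of either gene end and 13 or 14 without any one library. The alternatives for this count were added after the data were seen. Control-only regions numbered 1, with 0 at either FDR limit, 0 with equal list sizes and 2 for 200 bp around midpoints. Without a library they numbered 1 to 8, the most without control replicate 2, where a condition over 5 libraries is easier to meet. Silenced-only regions numbered 0, and 0 to 2 without a library. The rank comparison called 0 regions of the cluster under each alternative run, with 1 or 2 of the 61 at an unadjusted p under 0.05. With the replicate block, the exact sign-flip test gave p = 0.5 for peaks (−14.7), 0.5 for peaks per 1000 (−0.188) and 0.75 for member genes (−2), where 3 pairs cannot go below 0.25; limma with the replicate block called 0 of the 61 regions.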
